A study of Mus musculus with 2 samples.

Results

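The 7 genes described here encode the receptors for the growth factors that make and maintain myeloid cells. They are Csf1r, Csf2ra, Csf2rb, Csf2rb2, Csf3r, Flt3 and Kit, chosen by symbol from a table of 27998 genes, and all of them were found. Their use was compared over granulocyte, monocyte, macrophage and dendritic cell (DC) classes and between 2 libraries. The cells were CD45+ leukocytes of tumors grown from LLC, a Lewis lung carcinoma line, taken 14 days after implantation under the skin of C57/BL6 mice. The age given was 10 weeks, and the age at implantation 8 weeks. By its title, the library labelled wt came from control mice with loxP-flanked miR-21 (miR-21fl/fl). By its title, the library labelled cko came from LysMCre;miR-21fl/fl mice, which are made to lose the microRNA miR-21 where the lysozyme M gene Lyz2 drives Cre, mainly macrophages and granulocytes. Each library was 1 pool of 3 mice, so no difference between the libraries has a replicate check, no test across animals was possible, and every interval below is a 95% interval for counting error only. Because PCR copies are collapsed by molecular identifiers, a UMI stands for 1 captured molecule.

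The titles of the libraries give one assignment of the genotypes and the source fields give the reverse, and the growth protocol names a macrophage sort (CD11b+, MHCII+, F4/80+) where the design text names CD45+ cells. The libraries are therefore called by their titles throughout. Lyz2, the gene that carries the Cre allele, stood at 17200 CPM (a gene's UMIs per 1000000 UMIs of the same cells) under the title wt and at 7905 CPM under cko, a log2 ratio of −1.12 (interval −1.13 to −1.11). The deletion of miR-21 itself was not analysed here. After filters, 2397 and 2646 cells remained, with 5 cell barcodes in common, and the shallowest deposited cells held 3184 and 3187 UMIs. Barcodes below those depths are not analysed here, and granulocytes had the lowest median depth of the classes (4417 and 4023 UMIs).

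Hematopoietic growth factor receptors fall into 2 structural kinds. Csf1r, Flt3 and Kit are receptor tyrosine kinases, which signal when a ligand joins identical chains. Csf1r binds CSF1 and IL-34 and sustains monocytes and macrophages, Flt3 binds FLT3 ligand and sustains dendritic cells, and Kit binds stem cell factor and marks progenitors and mast cells. The others have no kinase of their own and signal through JAK2 and STAT proteins. Csf2ra is the alpha chain that binds GM-CSF, Csf2rb is the common beta chain shared by the receptors for GM-CSF, IL-3 and IL-5, Csf2rb2 is a mouse beta chain used for IL-3, and Csf3r is the receptor for G-CSF, the growth factor of neutrophils.

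Cells were placed in classes by UMIs of marker genes other than the receptors, and each class name is shorthand for cells like that type by RNA alone. Granulocytes (35 cells labelled wt and 69 labelled cko) had abundant S100a8 and S100a9 and neutrophil markers. Classical monocytes (452 and 442) had Ly6c2, and nonclassical monocytes (227 and 218) had Ace, Treml4 or Adgre4. Macrophages (534 and 756) had at least 20 UMIs of the complement genes C1qa, C1qb and C1qc. Cells with both that C1q level and Ly6c2 (194 and 152) were kept apart as Ly6c2-positive C1q cells. The dendritic classes were cDC1 (19 and 18 cells, Xcr1 and Clec9a), cDC2 (76 and 77, at least 3 of 9 markers, most often H2-Oa, Klrd1 and Kmo, with Clec10a in 33 and 35 and Cd209a in 8 and 6 of the cells), mature DC (13 and 25, Ccr7 and Fscn1) and plasmacytoid DC (18 and 19, Siglech and Ccr9). T, NK and B cells (199 and 225) formed a lymphoid class that shows how many receptor UMIs appear where free RNA of other cells is a possible source. No gate held 1217 of 5043 cells (24.1%), and 55 cells met several gates.

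Markers that no gate used were then read. Il1r2, a decoy receptor of neutrophils, stood at 1237 and 1249 CPM in granulocytes against 160 and 169 CPM in macrophages, but cDC2 held it too, at 1048 and 1252 CPM. Wdfy4, which cDC1 need for cross-presentation, stood at 290 and 207 CPM in cDC1 and at 44.7 and 31.4 CPM in cDC2. Bcl11a stood at 466 and 321 CPM in plasmacytoid DC and at most at 68.5 CPM in the other classes checked. Some classes were not pure by these markers. The 9 classical monocyte markers summed to 3764 and 3774 CPM in cDC2 and to 8017 and 8367 CPM in granulocytes, so both gates were also divided by Ly6c2, and the granulocyte gate by S100a8 and S100a9 as well.

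Csf2rb and Csf2rb2 are near copies, which bears on whether their UMIs can be told apart. Csf2rb (ENSMUSG00000071713) lies at chr15:78325752-78353847 on the plus strand of GRCm38, and Csf2rb2 (ENSMUSG00000071714) at chr15:78282507-78305721 on the minus strand, with 20030 bases between them. Their coding sequences (2691 and 2637 bases) were 95.3% identical over 2631 aligned bases. A stretch of 90 coding bases, positions 2534 to 2623 of either coding sequence, shows how closely they match, with the 5 differing bases in capitals:
Csf2rb: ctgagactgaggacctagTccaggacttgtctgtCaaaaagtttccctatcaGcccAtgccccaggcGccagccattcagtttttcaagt
Csf2rb2: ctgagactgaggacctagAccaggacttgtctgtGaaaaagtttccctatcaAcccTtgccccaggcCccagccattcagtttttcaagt
The reads of this assay come from the 3′ ends of transcripts. Over the last 600 transcript bases identity was 83.0% of 570 aligned bases, and 0 of the 503 windows as long as a read (98 bases) were found in the other gene. Within the coding sequence 294 windows were shared, which is 11.3% of those of Csf2rb and 11.6% of those of Csf2rb2. A read from the last 600 bases can therefore be assigned, while some reads from within the coding sequence cannot, and the 2 genes are given with that limit.

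Over all cells used, Csf1r gave 22938 UMIs and was seen in 84.6% of cells, Csf2ra gave 12837 UMIs (79.0%), Csf2rb 4254 (50.3%), Csf3r 2440 (33.1%), Csf2rb2 987 (16.6%), Flt3 577 (4.48%) and Kit 164 (2.56%). The depth behind the last 2 genes is therefore small. UMIs of a 3′ assay do not compare the levels of different genes, so classes are compared within a gene.

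**Figure D1:**
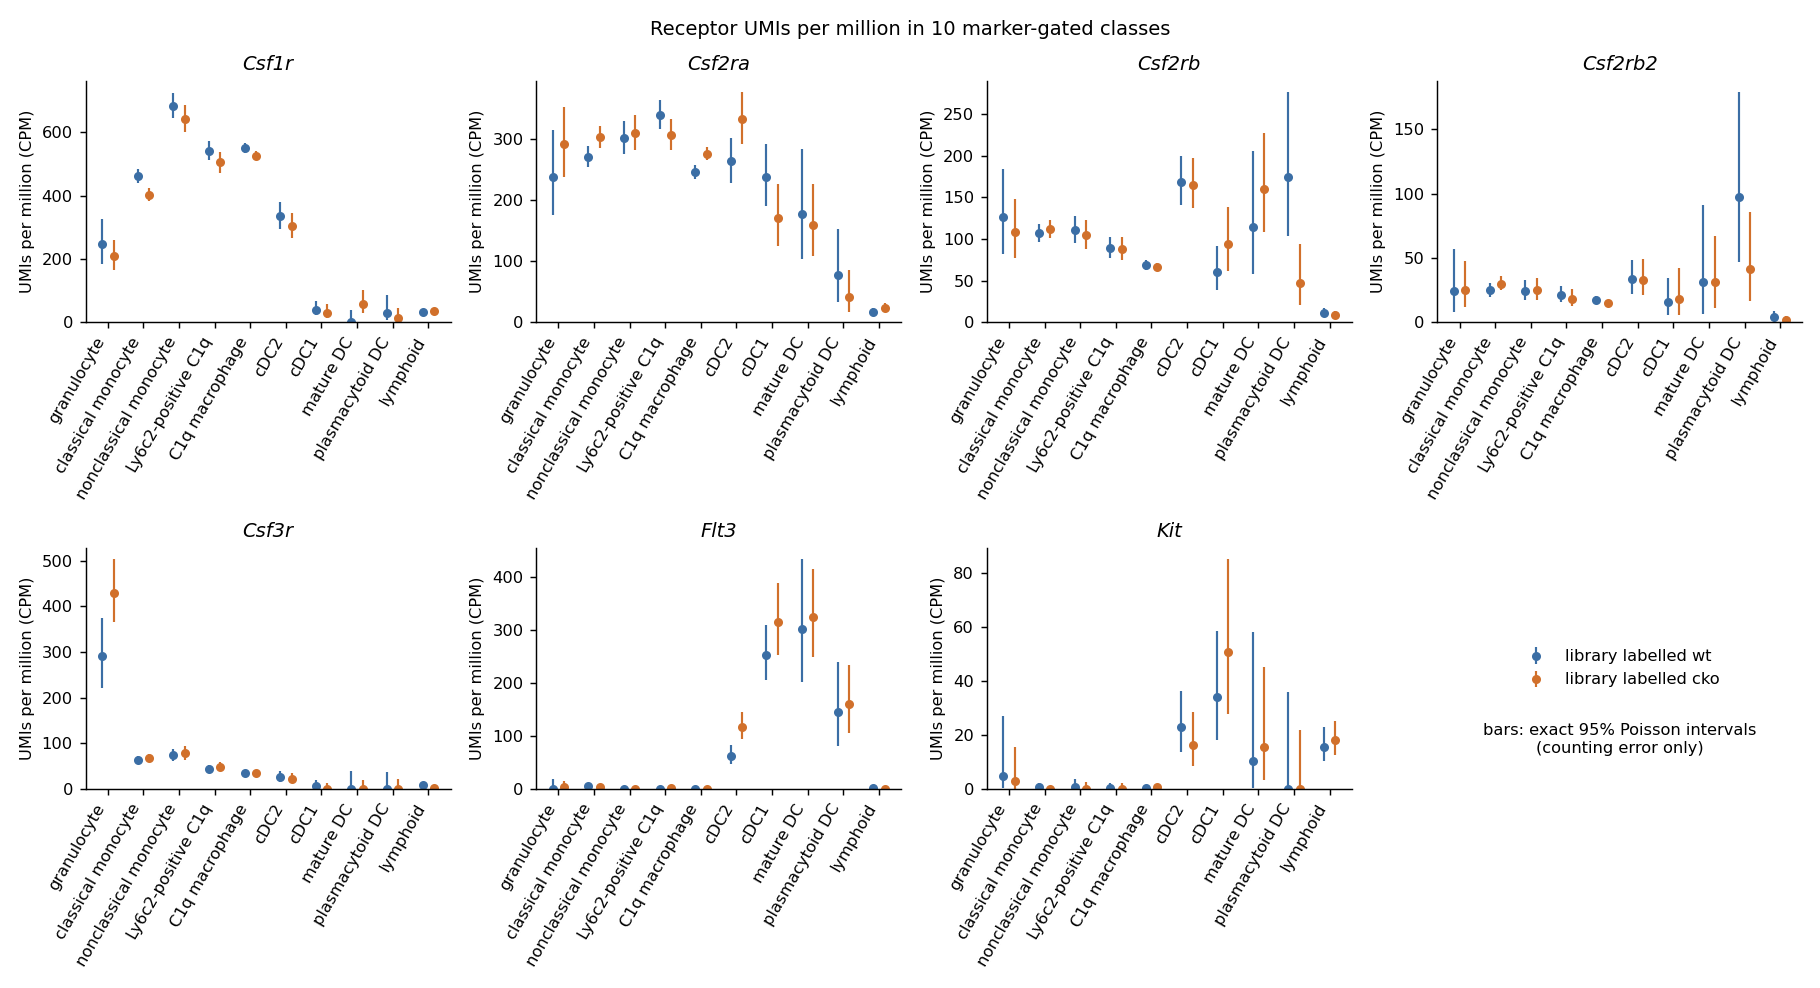
CPM (y axis, linear, a separate scale for each gene) of the 7 receptor genes in 10 marker-gated classes (x axis) for the libraries labelled wt (blue) and cko (orange), with exact Poisson intervals as bars. Csf1r peaks in nonclassical monocytes (684 and 642 CPM), Csf3r in granulocytes (291 and 430 CPM) and Flt3 in mature DC and cDC1 (253 to 325 CPM), while Csf2ra is spread over the myeloid classes.

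Csf1r was highest in nonclassical monocytes, at 684 CPM (interval 644 to 726) in the library labelled wt and 642 CPM (602 to 685) in the library labelled cko. C1q macrophages followed at 550 and 525 CPM and Ly6c2-positive C1q cells at 542 and 505 CPM, and these neighbours did not differ beyond counting error in either library. Classical monocytes stood lower, at 461 and 402 CPM. Nonclassical over classical monocytes came to 1.48-fold and 1.60-fold, and macrophages over classical monocytes to 1.19-fold and 1.31-fold, with intervals on the log2 scale that leave out 0 in both libraries. Every cell class of the monocyte and macrophage lineage thus carried the CSF1 receptor within a range of under 2-fold, and the order of these 4 classes was the same in both libraries.

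Among dendritic cells Csf1r divided the conventional subsets. It stood at 335 and 303 CPM in cDC2 but at 39.5 and 29.0 CPM in cDC1, a ratio of 8.47-fold and 10.4-fold. The cDC1 level did not differ beyond counting error from that of lymphoid cells (31.3 and 33.5 CPM), and neither did the level in plasmacytoid DC (29.1 and 11.9 CPM, 3 and 2 UMIs). Mature DC had 0 UMIs in 13 cells labelled wt and 11 UMIs in 25 cells labelled cko (56.7 CPM), 6 of the latter in 1 cell. The interval of that difference leaves out equality (log2 at least 0.31), and the 9 classical monocyte markers in this class summed to 365 and 1036 CPM, whose part in it was not tested. Within cDC2, cells with at least 1 Flt3 UMI had 266 and 277 CPM of Csf1r and cells without one 382 and 330 CPM, a difference beyond counting error labelled wt and within it labelled cko. Both receptors were seen in the same cDC2 cell in 25 of 76 cells labelled wt and 31 of 77 labelled cko.

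Granulocytes showed an intermediate Csf1r level, 247 and 208 CPM, that was unevenly spread when the gate was divided by S100a8 and S100a9. The 20 and 53 cells with at least 500 UMIs of S100a8 and S100a9 had 75.0 and 51.3 CPM of Csf1r (6 and 11 UMIs). The 15 and 16 cells with at least 50 but fewer than 500 such UMIs had 357 and 438 CPM, 4.75-fold and 8.54-fold more. The first group did not differ beyond counting error from lymphoid cells in either library (2.40-fold and 1.53-fold). The second group was also deeper, with median depths of 8127 and 9018.5 UMIs against 3380 and 3720, and this division was chosen after the values were seen. Division by Ly6c2 showed no such concentration. Granulocytes with 0 to 2 Ly6c2 UMIs had 263 and 180 CPM of Csf1r and those with 3 or more had 223 and 263 CPM, with overlapping intervals.

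Csf1r (ENSMUSG00000024621, chr18:61100598-61132149, plus strand, GRCm38) shares 873 bases at its 3′ end with Hmgxb3, which runs on the opposite strand. Hmgxb3 gave 59 and 66 UMIs over all cells, so few UMIs were assigned to that partner. Whether strand was used in counting is not given in the sources used here.

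Csf2ra, the GM-CSF binding chain (ENSMUSG00000059326, chr19:61223957-61228429, minus strand), was spread evenly over the monocyte, macrophage, granulocyte and cDC2 classes. In the library labelled wt it ran from 237 CPM in cDC1 to 340 CPM in Ly6c2-positive C1q cells over granulocytes (238), macrophages (245), cDC2 (263), classical (271) and nonclassical monocytes (301). The library labelled cko gave 171 CPM in cDC1, 276 in macrophages, 291 in granulocytes, 303 in classical monocytes, 306 in Ly6c2-positive C1q cells, 310 in nonclassical monocytes and 332 in cDC2. Of neighbours in the orders of these 7 classes, only Ly6c2-positive C1q cells over nonclassical monocytes (labelled wt) and macrophages over cDC1 (labelled cko) differed beyond counting error, and the order was not the same in the libraries. Lymphoid cells had 16.2 and 23.4 CPM, 15.1-fold and 11.8-fold below macrophages (log2 3.92 and 3.56). That step was 3.13 labelled wt with Leiden clusters in place of gates and 2.83 labelled cko with doublets kept. Mature DC (177 and 160 CPM) did not differ beyond counting error from cDC1, and plasmacytoid DC (77.7 and 41.6 CPM, 8 and 7 UMIs) lay below macrophages in both libraries, by 3.16-fold and 6.62-fold. In the library labelled cko plasmacytoid DC did not differ beyond counting error from lymphoid cells.

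The common beta chain Csf2rb had a different order. It was highest, among classes with at least 50 UMIs in each library, in cDC2, with 169 CPM (132 UMIs) and 165 CPM (121 UMIs), followed by nonclassical (110 and 104 CPM) and classical monocytes (107 and 111 CPM). Ly6c2-positive C1q cells had 89.2 and 87.9 CPM and macrophages 68.1 and 66.2 CPM. The steps from cDC2 to macrophages (2.48-fold and 2.50-fold), from classical monocytes to macrophages (1.57-fold and 1.68-fold) and from Ly6c2-positive C1q cells to macrophages (1.31-fold and 1.33-fold) all exceed counting error in both libraries. Granulocytes, at 126 and 108 CPM, were 1.85-fold and 1.64-fold above macrophages. Both chains were thus lowest in macrophages among the 4 monocyte and macrophage classes. For the alpha chain Csf2ra the step from classical monocytes to macrophages was 1.10-fold in each library and that from Ly6c2-positive C1q cells 1.39-fold and 1.11-fold, all beyond counting error.

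Csf2rb2, the beta chain for IL-3, had fewer UMIs. Classical monocytes had 24.6 and 29.9 CPM, macrophages 17.0 and 14.6 CPM and cDC2 33.2 and 32.8 CPM. Classical monocytes over macrophages came to 1.45-fold and 2.05-fold. Plasmacytoid DC had 97.2 CPM (10 UMIs) and 41.6 CPM (7 UMIs), 5.71-fold and 2.85-fold above macrophages, with wide intervals that leave out equality. Against cDC2, the next class, they were 2.92-fold higher labelled wt, while labelled cko the 1.27-fold ratio was within counting error (0.462 to 3.04). In these cells Csf2rb was also present, with 175 CPM (18 UMIs) and 47.6 CPM (8 UMIs), while the alpha chain Csf2ra was low. Cells with both Csf2ra and Csf2rb UMIs made up 5 of 18 plasmacytoid DC labelled wt and 0 of 19 labelled cko, against 68.4% and 66.2% of cDC2 and 49.8% and 50.7% of macrophages, where median depth was larger (5773.5 and 5773 UMIs in plasmacytoid DC, 11860.5 and 11503.5 in macrophages). Il3ra and Il5ra, the other alpha chains that use the beta chains, are counted with the pathway genes below.

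**Figure D2:**
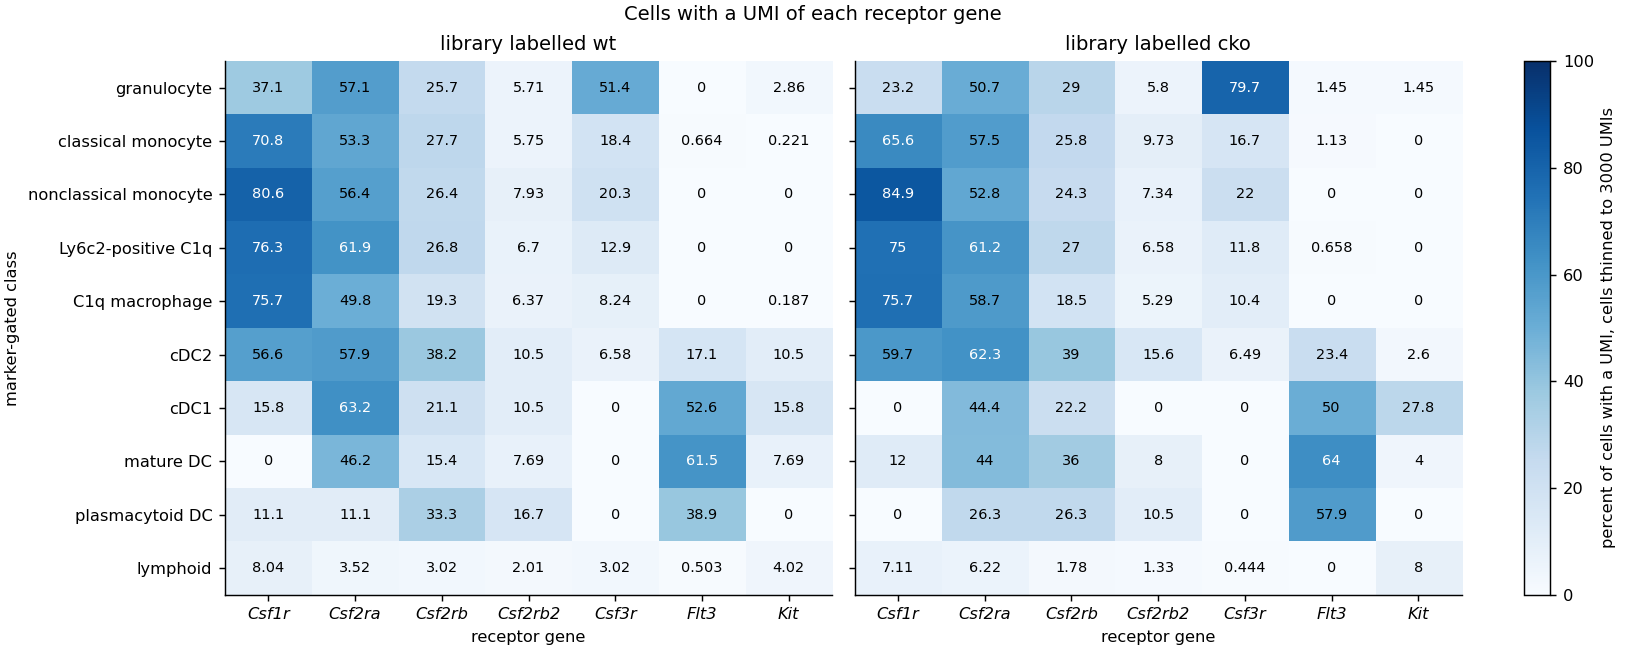
Percent of cells (color and printed value) with at least 1 UMI of each receptor gene (columns) in each class (rows), after every cell was thinned to 3000 UMIs, for the libraries labelled wt (left) and cko (right). Csf1r is seen in 65.6% to 84.9% of monocytes and macrophages against 8.04% and 7.11% of lymphoid cells, and Flt3 in 38.9% to 64.0% of cDC1, mature DC and plasmacytoid DC.

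Shares of cells were also compared at equal depth. With each cell thinned to 3000 UMIs, which left out 0 cells, Csf1r was seen in 75.7% and 75.7% of macrophages, 80.6% and 84.9% of nonclassical monocytes and 70.8% and 65.6% of classical monocytes. Lymphoid cells, which are not known to depend on this receptor, had 8.04% and 7.11%, with a median depth before thinning of 6091 and 6865 UMIs. For Csf2rb the thinned shares were 38.2% and 39.0% in cDC2 and 19.3% and 18.5% in macrophages, against 3.02% and 1.78% in lymphoid cells. Unthinned they were 73.7% and 71.4% in cDC2 and 53.4% and 53.8% in macrophages. Shares and levels did not always have the same order. Labelled cko, plasmacytoid DC had a thinned Flt3 share of 57.9% against 50% in cDC1, whose Flt3 level was higher, and a Csf2rb share of 26.3% against 18.5% in macrophages, whose Csf2rb level was higher, so no order was read from these pairs. Unthinned, Csf1r was seen in 84.8% of all cells labelled wt and 84.4% of those labelled cko.

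Csf3r, the G-CSF receptor (ENSMUSG00000028859, chr4:126024550-126044440, plus strand), marked granulocytes. Those labelled wt held 60 UMIs (291 CPM, interval 222 to 375) and those labelled cko held 155 (430 CPM, 365 to 503). Nonclassical monocytes had 73.4 and 77.8 CPM, classical monocytes 62.9 and 67.8 CPM, Ly6c2-positive C1q cells 43.1 and 47.8 CPM and macrophages 34.7 and 33.6 CPM. Granulocytes stood 4.62-fold and 6.35-fold above classical monocytes and 8.38-fold and 12.8-fold above macrophages. Restricted to cells of at least 5000 UMIs, which leaves out most granulocytes, the first of these steps (log2 2.21 and 2.67) was 1.65 and 1.79. Monocytes were in turn above macrophages, classical ones by 1.81-fold and 2.01-fold and nonclassical ones by 2.11-fold and 2.31-fold. The 2 monocyte classes did not differ from each other beyond counting error.

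Dendritic cells outside cDC2 gave few Csf3r UMIs, from few cells. Mature DC and plasmacytoid DC had 0 UMIs in both libraries and cDC1 had 2 and 0, while cDC2 had 25.6 and 21.9 CPM (20 and 16 UMIs) and lymphoid cells 8.42 and 2.13 CPM. Taking 3 UMIs as the limit that a count of 0 allows, mature DC could have had up to 31.3 and 15.5 CPM and plasmacytoid DC up to 29.1 and 17.8 CPM. In the library labelled wt both limits lie above the cDC2 level, so a lower level than in cDC2 was not detectable there. Divided by S100a8 and S100a9, granulocytes showed Csf3r on the side opposite to Csf1r. Cells with at least 500 UMIs of S100a8 and S100a9 had 450 and 560 CPM, and the cells with fewer had 190 and 240 CPM, a ratio of 2.37-fold and 2.34-fold. Divided by Ly6c2, the order was not shared by the libraries, with 287 CPM at 0 to 2 Ly6c2 UMIs and 298 CPM at 3 or more labelled wt, and 511 and 271 CPM labelled cko.

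Flt3 (ENSMUSG00000042817, chr5:147330741-147400489, minus strand) was found mainly in dendritic classes. Mature DC had 302 CPM (29 UMIs) and 325 CPM (63 UMIs), cDC1 253 CPM (96 UMIs) and 316 CPM (87 UMIs), plasmacytoid DC 146 CPM (15 UMIs) and 161 CPM (27 UMIs), and cDC2 62.6 CPM (49 UMIs) and 118 CPM (86 UMIs). Classical monocytes had 4.98 and 3.97 CPM, and no other gated class exceeded 2.78 CPM. Cells of no gate held 19 and 40 Flt3 UMIs, 8.05% and 11.7% of those in their library, and cells of several gates held 6 and 12. Every one of the 19 and 18 cDC1 cells had a Flt3 UMI, with a median of 5 UMIs per cell in each library. Mature DC and cDC1 did not differ beyond counting error, and both were above cDC2, cDC1 by 4.04-fold and 2.69-fold. Flt3 overlaps the antisense gene Gm26597 over 936 bases at its start, away from the 3′ end that is read.

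Among the 4 dendritic classes, cDC2 had both Flt3 and a Csf1r level far above that of lymphoid cells in both libraries. In cDC1 8 of 19 and 5 of 18 cells had both UMIs before thinning, but at Csf1r levels like those of lymphoid cells. Median depth in cDC1 was 18487 and 14605.5 UMIs, the highest of all classes, which raises the chance of seeing a single UMI of any gene.

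Kit, the stem cell factor receptor (ENSMUSG00000005672, chr5:75574916-75656722, plus strand), was rare. It stood at 34.3 CPM (13 UMIs) and 50.8 CPM (14 UMIs) in cDC1 and at 23.0 CPM (18 UMIs) and 16.4 CPM (12 UMIs) in cDC2, while the 534 and 756 macrophages had 2 and 5 UMIs in all. The level in cDC1 exceeded that in lymphoid cells (15.6 and 18.1 CPM) by 2.19-fold and 2.81-fold. Lymphoid Kit was itself uneven. NK cells had 38.8 and 44.3 CPM (17 and 15 UMIs) and T cells 3.78 and 11.8 CPM, a ratio of 10.3-fold and 3.77-fold. Mast cells or basophils, the classic Kit-bearing cells of tissues, numbered 3 in the library labelled wt, with 5 Kit UMIs in 2 of them, and 0 in the library labelled cko. Plasmacytoid DC had 0 Kit UMIs in both libraries, which allows up to 29.1 and 17.8 CPM (3 UMIs).

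**Figure D3:**
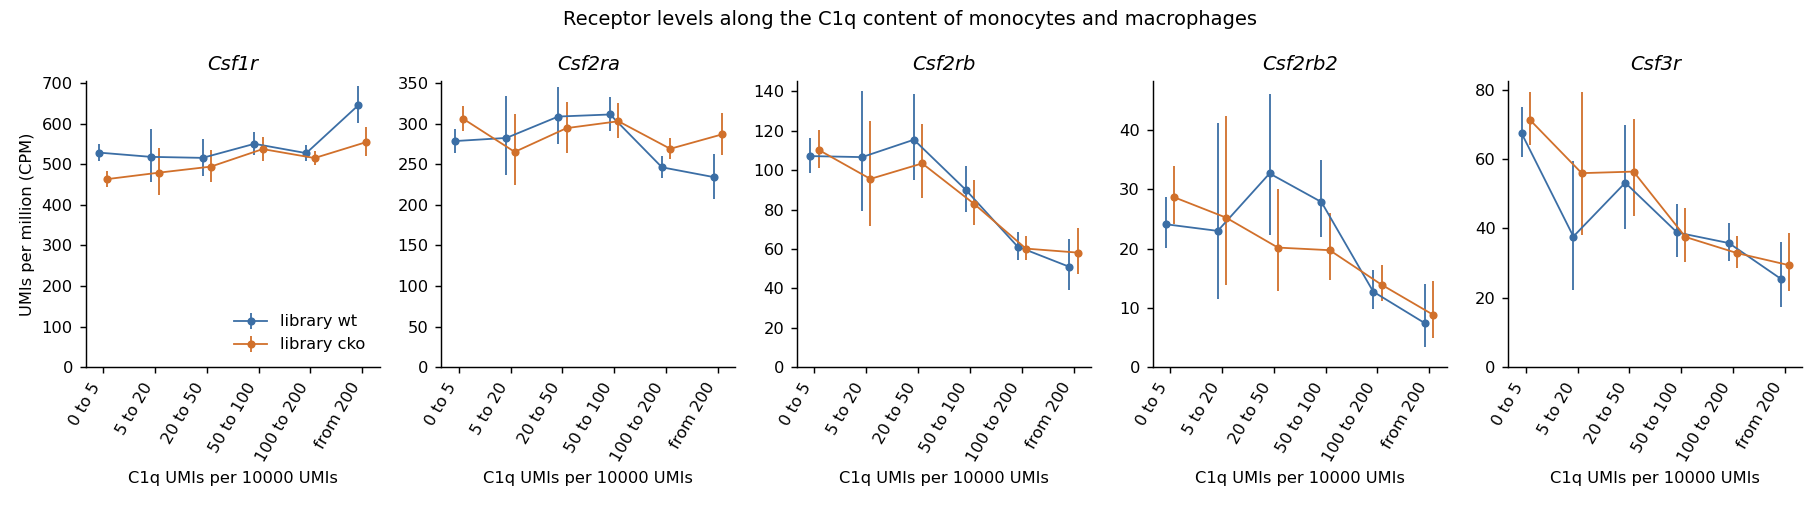
CPM (y axis, linear) of the 5 receptor genes found in monocytes and macrophages against the C1q content of the cell (x axis, UMIs of C1qa, C1qb and C1qc per 10000 UMIs, in 6 bins), for the libraries labelled wt (blue) and cko (orange) with exact Poisson intervals. Csf1r ends above its lowest bin (log2 0.29 and 0.26), Csf2ra stays close to it, and Csf2rb, Csf2rb2 and Csf3r end at 0.306 to 0.527 of it.

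C1q content was also read as a scale from monocytes to mature macrophages. The 5 receptors of these cells were followed over 6 bins of C1q UMIs per 10000 UMIs, in the 4 monocyte and macrophage classes together. The gates of these classes leave out cells with at least 10 but fewer than 20 C1q UMIs. The scale therefore has a gap and in part repeats the contrast of the classes. From the lowest bin (below 5, 629 and 601 cells) to the highest (200 or more, 78 and 109 cells), Csf1r went from 529 to 645 CPM in the library labelled wt and from 464 to 555 CPM in the library labelled cko. Csf2ra in the last bin was at 0.841 and 0.936 of its first level, the second within counting error. Csf3r went from 67.4 to 25.5 CPM and from 71.3 to 29.4 CPM, Csf2rb from 107 to 50.9 CPM and from 110 to 58.2 CPM, and Csf2rb2 to 0.306 and 0.307 of its first level. Monocytic cells rich in C1q thus had the CSF1 receptor and the GM-CSF alpha chain at levels near those of other monocytic cells and less of the beta chains and of the G-CSF receptor, in both libraries. Median depth also differed over the bins, from 7716 and 7558 UMIs in the lowest to 15082 and 13554 in the highest, and its part was not tested.

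Inside the macrophage gate the beta chains varied further. Macrophages without UMIs of Cd300e, Clec4b1, Pparg, Vcam1, Ccl8 and Folr2 (223 and 281 cells) had 34.4 and 28.1 CPM of Csf2rb2 and 101 and 89.1 CPM of Csf2rb. Macrophages with UMIs from the first 3 and from the last 3 of these genes (146 and 198 cells) had 5.95 and 10.5 CPM of Csf2rb2 and 46.2 and 55.0 CPM of Csf2rb. Csf1r differed less, with 612 and 573 CPM in the first group against 545 and 516 CPM in the second. The first group was shallower, with median depths of 8941 and 8656 UMIs against 20329.5 and 18304, and whether depth has a part was not tested. Macrophages with UMIs from only the first 3 genes (94 and 185 cells) had 16.6 and 5.87 CPM of Csf2rb2 and 494 and 475 CPM of Csf1r. Those with UMIs from only the last 3 (71 and 92 cells) had 14.0 and 14.4 CPM and 505 and 543 CPM.

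**Figure D4:**
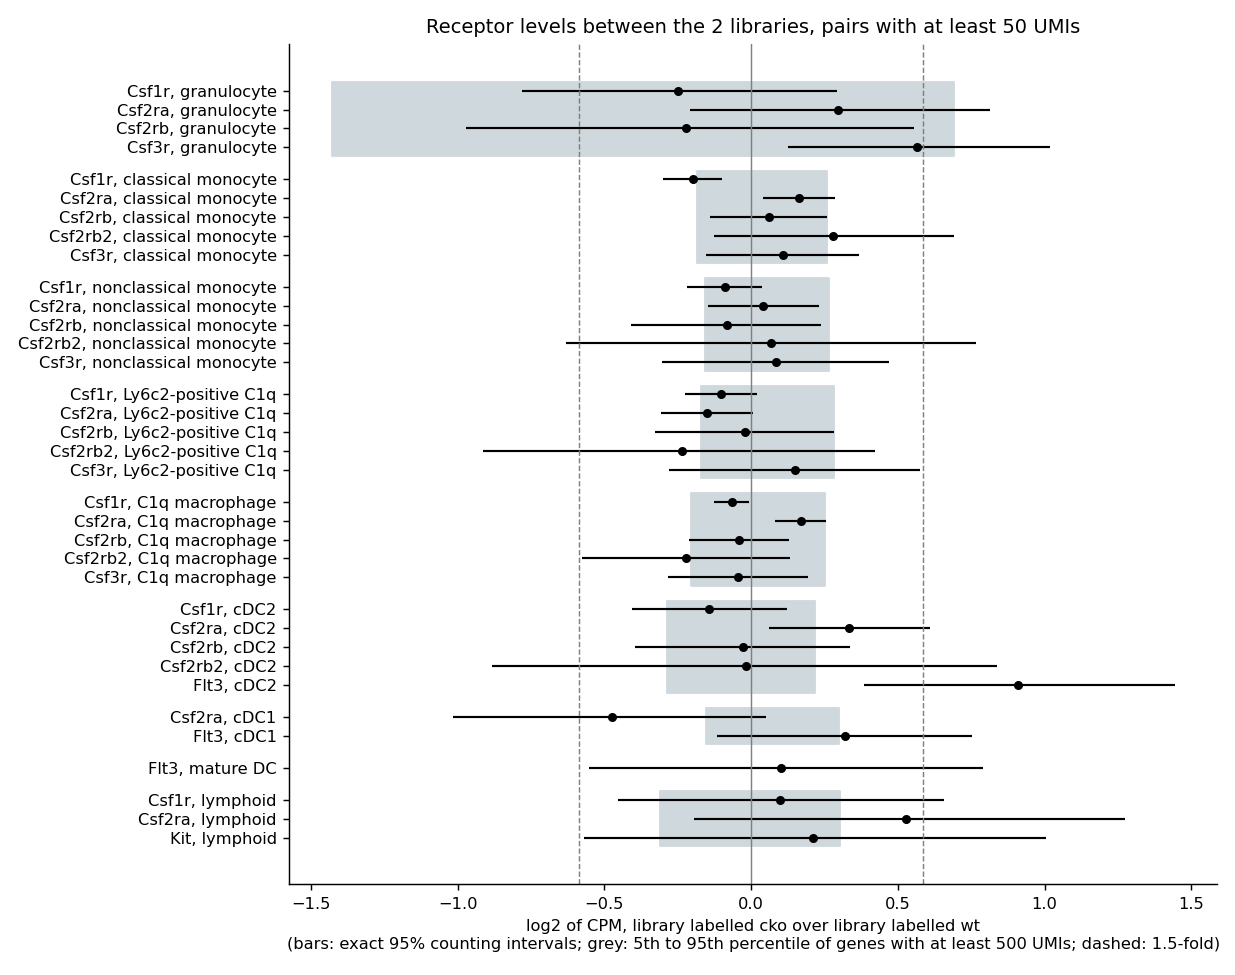
Log2 ratio of CPM, library labelled cko over library labelled wt (x axis), for each receptor and class with at least 50 UMIs over both libraries (rows), with exact 95% counting intervals. Grey bands span the 5th to 95th percentile of genes with at least 500 UMIs in that class, and dashed lines mark 1.5-fold. Flt3 in cDC2 (0.91) is the only point beyond a dashed line.

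The libraries were then compared receptor by receptor. A pair of receptor and class was counted when it had at least 50 UMIs over both libraries, and a ratio of at least 1.5-fold in either direction was called past the fold, which is a rule of size and not a test. In classical monocytes 0 of 5 such receptors were past it, where 4.88% of all genes counted were. The count was 0 of 5 in nonclassical monocytes (6.08% of all genes), 0 of 5 in Ly6c2-positive C1q cells (6.32%) and 0 of 5 in macrophages (5.47%). Granulocytes had 0 of 4 (21.7%), cDC1 0 of 2 (11.8%) and mature DC 0 of 1 (25.2%). In plasmacytoid DC, where 38.4% of all genes counted were past the fold, no receptor reached 50 UMIs. In cDC2 1 of 5 was past the fold, where 8.64% of all genes were.

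That receptor was Flt3. The 76 cDC2 labelled wt had 49 Flt3 UMIs (62.6 CPM, interval 46.3 to 82.8) and the 77 labelled cko had 86 (118 CPM, 94.0 to 145), a log2 ratio of 0.91 (0.39 to 1.44). All 214 genes with at least 500 UMIs in cDC2 had lower ratios, but those genes are counted far more precisely than Flt3. The UMIs were spread over 29 and 37 cells, cells with 3 or more numbered 5 and 11, and leaving out the cell with the most left 44 and 77 UMIs. In cDC1 the ratio was 0.32 (−0.12 to 0.75) and in mature DC 0.10 (−0.55 to 0.79), and whether cDC2 differ from them was not tested. Over the conventional and mature DC together Flt3 had 138 and 197 CPM, a log2 ratio of 0.51 (0.22 to 0.80). Mature DC, with the highest Flt3 level, were 13 of the pooled cells labelled wt and 25 labelled cko, so the pooled ratio also holds a difference in class mix.

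The make-up of the cDC2 gate was not the same in the libraries. Cells with at least 3 Ly6c2 UMIs numbered 15 of 76 and 7 of 77, and they had 19.1 and 68.0 CPM of Flt3 (3 and 6 UMIs). Among the other 61 and 70 cells Flt3 stood at 73.6 and 124 CPM, a log2 ratio of 0.76 (0.22 to 1.31). The 9 mature DC markers summed to 21.7 and 123 CPM in cDC2, with 5 and 4 of them at 0, and Apol7c, with 36 of its UMIs in 1 cell labelled cko, gave the largest share of the sum in that library. Without the 10 and 12 cells that had any UMI of these markers, an alternative chosen after the data were seen, the Flt3 ratio was 1.03. The 8 cDC1 markers summed to 67.8 and 50.6 CPM, the 8 plasmacytoid DC markers to 101 and 179 CPM (Lair1 alone 42.2 and 105) and the 9 cDC2 markers to 1307 and 1203 CPM. Within the cDC2 list members differed in direction, with Mgl2 at 451 and 286 CPM and Kmo at 166 and 219 CPM, and the list, which holds Klrd1, summed to 1202 and 1343 CPM in lymphoid cells. The 6 markers shared by conventional DC summed to 491 and 615 CPM, with none at 0 in either library, and among them Dpp4 had 78.0 and 131 CPM and H2-Oa 304 and 370 CPM, while Zbtb46 (23.0 and 23.2 CPM) and P2ry10 (69.0 and 69.7 CPM) were alike and Btla (8 and 12 UMIs) and Adam23 (5 and 3 UMIs) were rare. The members of the last list did not all move with Flt3, and the part of these markers in the Flt3 ratio was not tested.

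The other receptors differed by less than 1.5-fold where they had 50 UMIs, and some lay outside the 5th to 95th percentile range of well-counted genes. Those genes had at least 500 UMIs in each library. Csf2ra in cDC2 (206 and 243 UMIs) and Csf2rb2 in every class had fewer, so counting error alone can move their ranks. Csf2ra in cDC2 had 263 and 332 CPM, a log2 ratio of 0.33 (0.06 to 0.61), above 99.5% of the genes with at least 500 UMIs there. Its ratio was 0.17 (0.08 to 0.25) in macrophages and 0.16 (0.04 to 0.29) in classical monocytes, where 88.3% and 86.9% of such genes had lower ratios. It was not higher in every class, with −0.15 (−0.31 to 0.01) in Ly6c2-positive C1q cells, where 6.93% of such genes were lower, −0.48 (−1.02 to 0.05) in cDC1, and 0.08 (0.02 to 0.14) over the 4 monocyte and macrophage classes together. Csf1r had ratios of −0.20 (−0.30 to −0.10) in classical monocytes, −0.07 (−0.13 to −0.01) in macrophages and −0.10 (−0.14 to −0.05) over the 4 monocyte and macrophage classes together. In classical monocytes 4.20% of the genes with at least 500 UMIs had lower ratios than Csf1r, whose value lay just outside their 5th to 95th percentile range (−0.19 to 0.26). Csf2rb, Csf2rb2 and Csf3r showed no difference beyond counting error in any monocyte or macrophage class, although Csf2rb2 in classical monocytes, at 0.28 (−0.13 to 0.69), was above 95.9% of the well-counted genes. It lay at the other end in macrophages (−0.22, with 4.08% of such genes lower) and in Ly6c2-positive C1q cells (−0.24, 2.95%).

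Csf3r in granulocytes had a log2 ratio of 0.56 (0.13 to 1.02), just under the 1.5-fold limit. The granulocytes of the 2 libraries differed broadly. The 14 granulocyte markers summed to 123706 and 204660 CPM, genes with at least 500 UMIs there ranged from −1.43 to 0.69 (5th to 95th percentile, 41 genes), and a scaling by trimmed means (TMM) adds 0.26 to every ratio and so carries Csf3r past the limit. Csf3r UMIs were seen in 80.0% and 88.4% of granulocytes, and in 51.4% and 79.7% at equal depth. Within the gate the Csf3r ratio was 0.31 (−0.23 to 0.89) in cells with at least 500 UMIs of S100a8 and S100a9 and 0.33 (−0.46 to 1.15) in the others. Both intervals hold the value of the whole gate. The first of these groups made up 20 of 35 and 53 of 69 cells, and the part of this in the ratio was not tested. In plasmacytoid DC Csf2rb had 18 and 8 UMIs, a log2 ratio of −1.88 (−3.29 to −0.60) that rests on fewer than 50 UMIs, and the TMM shift there was 0.17.

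A list of 39 other genes of these pathways, covering ligands, alpha chains, signalling, feedback and transcription factors, was read beside the receptors. With at least 50 UMIs over both libraries, 1 gene of 25 was higher by at least 1.5-fold in macrophages and 0 were lower, and the counts were 0 and 1 of 26 in classical monocytes, 2 and 0 of 22 in nonclassical monocytes and 1 and 1 of 24 in Ly6c2-positive C1q cells. Over all genes counted, 5.47%, 4.88%, 6.08% and 6.32% were past the fold in these classes, so the pathway counts were near or below that background, and the genes named next are given as values only. Klf4, a transcription factor of the monocyte lineage, was the macrophage gene (log2 ratio 0.80) and was also past the fold in Ly6c2-positive C1q cells (0.82). Stat5b, which acts downstream of JAK2, was lower in classical monocytes (−1.05) and in Ly6c2-positive C1q cells (−0.70). Socs3, which limits G-CSF receptor signalling, stood at 0.67 and Inpp5d at 0.83 in nonclassical monocytes. There the granulocyte markers summed to 726 and 1357 CPM, the macrophage markers to 1545 and 2611 CPM and the class's own markers to 1535 and 1685 CPM. Their part in these ratios was not tested. The cDC2 class had 0 of 19 pathway genes past the fold, where 8.64% of all genes counted were. The cDC1 class had 0 of 9, where 11.8% were.

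Where 21.7% of all genes counted were past the fold, granulocytes had 1 pathway gene of 10 higher, Cebpb (0.71), a factor of emergency granulopoiesis, and 2 lower, the adaptor Grb2 (−0.78) and Irf8 (−0.97), a factor of monocyte and dendritic fate. The TMM shift of 0.26 in granulocytes would bring Grb2 inside 1.5-fold and carry Socs3 (393 and 497 CPM) just past it. This split therefore depends on the scaling. In mature DC the phosphatase Ptpn6 was higher (1.48) and Batf3, a cDC1 factor, lower (−0.72), of 9 genes, where 25.2% of all genes were past the fold. The 9 classical monocyte markers summed to 365 and 1036 CPM in mature DC and the 9 tumor and stromal markers to 31.3 and 155 CPM. In plasmacytoid DC Tyrobp (−0.78), Irf8 (−0.78) and Tcf4 (−0.68) were lower, of 5 genes, where 38.4% of all genes were past the fold. The TMM shift of 0.17 in plasmacytoid DC would bring Tcf4 inside 1.5-fold and leave the other genes named just past it. The make-up of that class differed too, with 8385 and 5324 CPM of its own 8 markers, 8395 and 4878 CPM of the classical monocyte markers and 292 and 827 CPM of the tumor and stromal markers, and the part of these in the receptor and pathway values was not tested.

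The ligands were scarce among CD45+ cells. Csf1 had 83 and 147 UMIs in all, 44 and 68 of them in T cells (28 of 130 and 43 of 171 cells with a UMI) and 0 in the 50 and 39 NK cells. T cells had 41.6 and 47.0 CPM, and granulocytes had 38.8 and 16.7 CPM on 8 and 6 UMIs, while 5 and 31 UMIs lay in cells of no gate. Flt3l had 277 and 249 UMIs, with 45.1 and 27.7 CPM in lymphoid cells, a log2 ratio of −0.71. The mix of T and NK cells in that class differed between the libraries. T cells had 41.6 and 27.0 CPM of Flt3l and NK cells 54.8 and 32.5 CPM. In the lymphoid class 1 pathway gene of 26 was higher by at least 1.5-fold and 3 were lower, where 266 of 6247 genes were higher and 210 lower. Flt3l and Il3 were among these 3, and Il3 was so because of 1 cell. Il34 had 14 and 15 UMIs, Csf2 5 and 8, Csf3 1 and 5, and Kitl 12 and 33. Of these, 13 and 10 Il34 UMIs and 8 and 20 Kitl UMIs lay in cells of no gate. Il3 reached 57 UMIs in the lymphoid class labelled wt, all of them in 1 T cell, and 0 in the library labelled cko. Tumor and stromal cells, known sources of several of these ligands, were not analysed here.

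Patterns over classes were set against those of 9024 genes by Pearson correlation of log2(CPM + 1) over 14 points, the 7 classes with at least 20 cells in each library. The points share libraries, and each library shares its depth and free RNA, so these values describe likeness and carry no test. They leave out cDC1, mature DC and plasmacytoid DC, which had fewer than 20 cells in a library and hold the highest Flt3 levels, so the values for Flt3 and Kit rest mainly on cDC2 and lymphoid cells. The genes most like Csf1r included Clec4a1 and Clec4a3 (r = 0.99 each), C-type lectin receptors of myeloid cells. Csf2ra was closest to Skap2 and Spi1 (0.99 each), Spi1 being PU.1, a factor of the myeloid lineage. Csf2rb was closest to Snx20 (0.98) and Nfam1 (0.97), Csf2rb2 to Nfam1 (0.96) and Sgk3 (0.96), and Csf3r to Plaur (0.99), the urokinase receptor, and Socs3 (0.97). Flt3 was closest to Sqle (0.93) and Hmgcs1 (0.90), enzymes of sterol synthesis, and Kit to Spint2 (0.95) and Acap1 (0.93), on few UMIs. Among the receptors themselves Csf2rb and Csf2rb2 were most alike (0.98), Csf1r and Csf2ra stood at 0.94, Csf1r and Flt3 at −0.01, and Csf1r and Kit at −0.72.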

How the data were processed

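CD45+ cells were profiled with the 10x 3′ version 2 chemistry. The authors deposited raw UMI counts per gene and cell, whole numbers, for called cells. The submitters' processing notes name mm10 (the same assembly as GRCm38), Cell Ranger and Seurat, with no versions. Gene positions and transcripts came from a GENCODE annotation of GRCm38.

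Libraries were grouped by title. A minimum of 200 genes and a maximum of 10% mitochondrial UMIs removed 4 and 14 cells. Scrublet's automatic threshold marked 7 of 5149 cells (0.136%), too few to have worked, so the highest scores were removed at 0.8% per 1000 cells (48 and 58 cells). Classes came from UMI gates on marker genes, whose limits were set after the markers, but not the receptors, had been seen. The gates required S100a8 and S100a9 of at least 50 UMIs and 2 further markers for granulocytes and 3 Ly6c2 UMIs for classical monocytes. Fewer than 10 C1q UMIs were required for classical monocytes, nonclassical monocytes and cDC2. The other classes outside the C1q gates had no such limit, but cells that also met a C1q gate were left out of them. Values are UMIs summed per class and library, as CPM with exact Poisson intervals; ratios have exact conditional binomial intervals and shares exact Clopper-Pearson intervals. Depth per cell was similar (medians 8359 and 8247 UMIs). Shares were also computed with cells thinned to 3000 UMIs.

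With 1 library per group no test was run, and every interval covers counting error only. All 7 receptors and pathway genes with at least 50 UMIs in a class could be named, and likeness names come from the 5 most correlated genes of each receptor. The members and lists were chosen with earlier results of these data known. Cells, gates and intervals used Python 3.11.15, scanpy 1.11.5, leidenalg 0.10.2, numpy 2.4.6, scipy 1.17.1 and pandas 2.3.3, TMM factors used edgeR 4.0.16, and figures used matplotlib 3.10.9. The interval was tested on simulated data. Alternatives were stricter gates, Leiden clusters, kept doublets, cells of at least 5000 UMIs, the mean over cells, TMM scaling, shares without thinning and other UMI minimums. Promoters and proteins were not analysed here.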

Additional observations from a re-analysis of the deposited data

How the results depend on the processing

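No receptor value recomputed under an alternative changed sign. Granulocyte Csf1r and Csf2rb (−0.25 and −0.22) were not recomputed under TMM, whose shift of 0.26 there exceeds both. Macrophages over classical monocytes for Csf1r (log2 0.25 labelled wt, 0.39 labelled cko) gave 0.34 and 0.51 with stricter gates and 0.16 and 0.18 with Leiden clusters. Csf2ra in macrophages over lymphoid cells (3.92 and 3.56) gave 3.13 and 3.03 with Leiden clusters and, labelled cko, 2.83 with doublets kept. Csf2rb in classical monocytes over macrophages labelled wt (0.65) gave 0.46 with Leiden clusters. Csf3r in granulocytes over classical monocytes (2.21 and 2.67) gave 1.65 and 1.79 in cells of at least 5000 UMIs and, labelled cko, 3.00 with stricter gates and 2.20 with Leiden clusters. The cause of these shifts was not tested. The Flt3 ratio in cDC2 stayed within 0.74 to 1.03 over all its alternatives, which include 1 added after the data were seen. Of 14 shares of cells, 13 moved without thinning, by construction, since deeper cells show more genes.

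Counts of all genes past 1.5-fold move with the minimum of UMIs, by construction, since fewer or more genes are counted. With at least 200 and at least 10 UMIs in place of 50 they were 66 and 1582 in granulocytes (288 with 50), 56 and 1360 in classical monocytes (364), 34 and 1657 in nonclassical monocytes (320), 56 and 1610 in Ly6c2-positive C1q cells (392), 127 and 1364 in macrophages (514), 11 and 1817 in cDC1 (207), 30 and 1888 in cDC2 (313), 51 and 1466 in mature DC (196) and 79 and 1955 in plasmacytoid DC (337). TMM scaling kept these counts within 1.5 times but moved the share of higher calls from 33.7% to 72.2% in granulocytes, from 59.4% to 48.8% in Ly6c2-positive C1q cells, from 55.2% to 45.8% in classical monocytes and from 50.7% to 70.6% in plasmacytoid DC.

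No paired analysis was possible because each group is 1 library, and for the same reason no replicate was left out. TMM factors were formed between the libraries within a class, so TMM ratios between classes were not run. Depth limits Kit, Flt3 outside dendritic cells and all receptors in plasmacytoid DC, where a few UMIs decide each value.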
